A study of Mus musculus with 8 samples.

Results

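Mediator is the multisubunit complex that carries regulatory signals from DNA-bound transcription factors to RNA polymerase II. Its scaffold subunit, Med14, holds the head, middle and tail modules together. The tail is where many activators bind, and a separable kinase module can attach to the core. In the pancreatic beta cell, cAMP acts through protein kinase A (PKA) and the transcription factor CREB, which binds the cAMP response element (CRE).

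The 8 genes described here, of 17362 in the table, were taken by name for their place in the complex: the scaffold Med14, the head subunit Med17, the middle subunit Med1, and the tail subunits Med15, Med16, Med23, Med24 and Med25. They were followed in the pooled beta, alpha and delta cell columns of 6 conditions. Hand-picked mouse islets came from wild type (WT) C57BL/6J mice or from mice with the whole-body Med14 S983A knock-in. The knock-in replaces a PKA-recognised serine of Med14 with alanine, and the paper lists the line as C57BL/6J. Islets of each genotype were cultured untreated (CON), with forskolin (FSK), which activates adenylyl cyclase, or with the GLP-1 analog Exendin-4 (Ex-4, 10 nM). Exposure lasted 16 h. The FSK dose used on islets, and the age and sex of the mice, are not given in the sources used here.

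Single nucleus RNA-seq was made with combinatorial barcoding, in which wells of the first round were assigned to conditions and all 8 sublibraries held nuclei of all 6. The deposited values are therefore 1 pooled column per condition and cell type. No column had a replicate, so no test between conditions was possible, and condition cannot be told apart from islet preparation or well. Intervals below are exact 95% intervals and cover counting error only. In a pooled column, fewer nuclei expressing a gene and less RNA per nucleus cannot be told apart.

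Column totals were 1915006 to 3094377 counts in beta cells, 269394 to 810127 in alpha cells and 362410 to 631433 in delta cells. Levels are given as counts per 10000 counts of the column (CP10K). The cell type labels were checked against defining hormones: Ins2 was at 8.76 to 16.4 CP10K in beta cells and at most 2.37 in alpha and 2.79 in delta cells. Gcg was at 33.8 to 115 CP10K in alpha cells and at most 1.53 in beta and 2.33 in delta cells, and Sst was at 2.84 to 6.11 CP10K in delta cells and at most 0.193 in beta and 0.189 in alpha cells. Macrophage markers summed to at most 0.026 CP10K, ductal markers to at most 0.0634 and endothelial markers to at most 0.301 in these 18 columns.

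Med14 is transcribed from the minus strand of the X chromosome and spans 86.98 kb (chrX:12541605-12628584, GRCm39, GENCODE M39). The codon exchanged in the S983A knock-in is a TCT serine codon in exon 22 of 31 and falls at chrX:12562479-12562481. It is shown because both genotypes differ there by design. The reference coding strand around it, chrX:12562449-12562511, reads as follows with the codon in capitals. The pooled counts do not tell the 2 alleles apart, so the Med14 values below check the level of the transcript and not the genotype.
Med14 exchanged codon: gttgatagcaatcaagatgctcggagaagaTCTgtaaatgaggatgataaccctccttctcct

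Because FSK and Ex-4 both raise cAMP, the promoters of the 8 genes were searched on both strands for the full CRE (TGACGTCA) and for its shorter core (TGACG, or CGTCA on the other strand, which the full element contains). The window ran from 250 bases before to 50 after the start of the canonical transcript. The full element was found in 0 of 8 genes, against 2.45% of 21751 promoters. The core was present in Med14, where it began at position -160, and in none of the 7 other windows. It was found in 22.6% of all promoters. A match in these letters is a description and not a binding site. Med15, which like Med14 was higher after FSK in beta cells of both genotypes, has no match either. Whether the core bears on any of the levels was not tested. The upstream 250 bases of Med14 (chrX:12628585-12628834, minus strand) are shown with the core in capitals. Beside them are those of Med25 (chr7:44542137-44542386, minus strand), which has no match and was lower after FSK in beta cells.
Med14 upstream: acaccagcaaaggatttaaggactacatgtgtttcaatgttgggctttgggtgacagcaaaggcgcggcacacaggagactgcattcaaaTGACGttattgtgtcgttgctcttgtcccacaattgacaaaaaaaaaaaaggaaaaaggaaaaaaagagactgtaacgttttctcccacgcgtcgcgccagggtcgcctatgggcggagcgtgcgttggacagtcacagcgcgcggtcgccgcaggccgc
Med25 upstream: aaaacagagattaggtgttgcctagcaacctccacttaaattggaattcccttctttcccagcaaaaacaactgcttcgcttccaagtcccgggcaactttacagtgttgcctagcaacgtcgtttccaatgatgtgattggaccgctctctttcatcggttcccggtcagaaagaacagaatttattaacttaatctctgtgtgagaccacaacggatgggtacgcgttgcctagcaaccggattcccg

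All 8 genes were detected in all 18 columns, at low levels. Across the 6 beta columns each gene was covered by 246 (Med16) to 1876 (Med15) counts in total. The remaining 6 cell types of the table held 0 to 29 counts of any of these genes per column and were not compared. Summed over the 8 genes, WT beta cell levels were 3.90 CP10K untreated, 3.85 after FSK and 5.35 after Ex-4, and mutant levels were 4.88, 4.32 and 5.04 in the same order. The WT CON and WT FSK columns thus held the lowest sums and WT Ex-4 the highest.

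Levels of different genes were compared only per length. Exon length was the union of the exons of all annotated transcripts of a gene, so it depends on the annotation. Per kb of exon, the mean beta cell level was highest for Med15 (0.0961 CP10K per kb), an activator-binding tail subunit, and lowest for Med16 (0.0289) and Med14 (0.035). The other 5 genes lay between 0.0451 (Med24) and 0.073 (Med25). Nuclear RNA holds many unspliced transcripts, and per Mb of gene span the order changed: Med25 was highest at 41.7 CP10K per Mb and Med14 lowest at 6.21, with the rest at 12.2 to 18.4. Med14 was therefore near the bottom and Med25 near the top on both scales, whereas the place of Med15 depended on the scale.

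**Figure D1:**
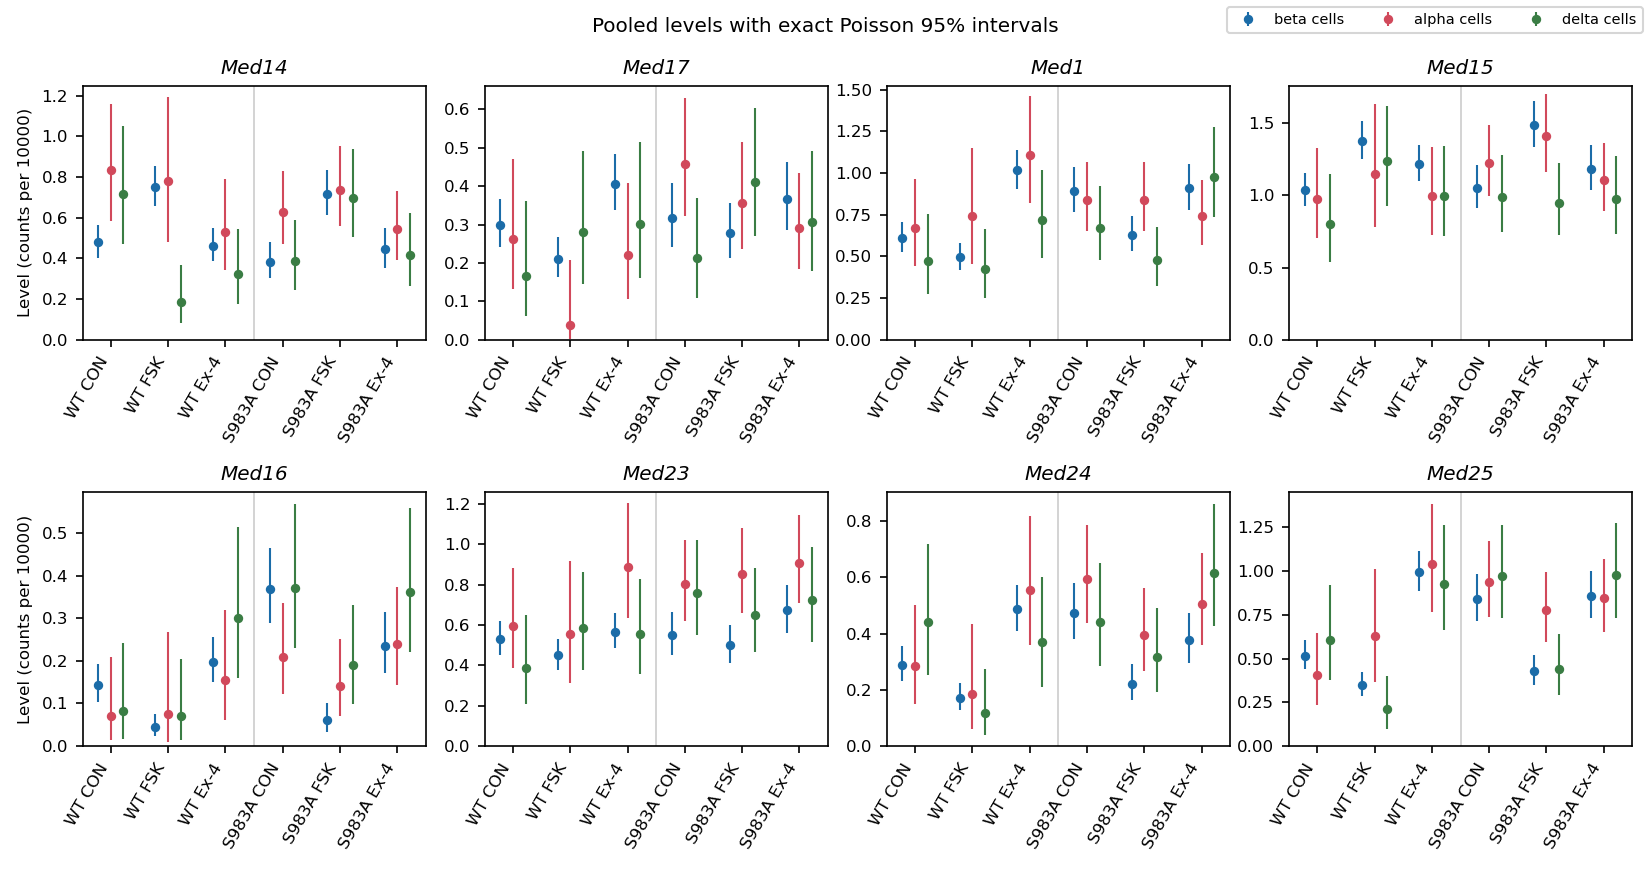
Level of each of the 8 subunit genes (y axis, counts per 10000; each panel has its own scale from 0) in the 6 conditions for pooled beta, alpha and delta cells. Points are single pooled columns and bars are exact Poisson 95% intervals; Med14 in beta cells is highest in the 2 FSK columns (0.753 and 0.716), while Med16, Med24 and Med25 are lowest there.

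The first comparison asked how the subunit genes differed after sustained FSK. In beta cells, the scaffold gene Med14 was higher after FSK in both genotypes and 3 tail genes, Med16, Med24 and Med25, were lower. Med14 stood at 0.478 CP10K (144 counts) in WT CON, 0.753 (233) in WT FSK, 0.384 (74) in mutant CON and 0.716 (165) in mutant FSK. The FSK to CON ratio of Med14 was 1.58 (1.27 to 1.95) in WT and 1.86 (1.41 to 2.49) in the mutant. Both treated columns lay above both untreated columns, with counting intervals that did not meet.

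Med15, the largest contributor of counts among the 8, was also higher after FSK. Its level was 1.04 CP10K in WT CON, 1.38 in WT FSK, 1.05 in mutant CON and 1.49 in mutant FSK. The ratio was 1.33 (1.15 to 1.55) in WT and 1.41 (1.18 to 1.69) in the mutant, so Med15 moved in the same direction as Med14 but did not reach 1.5-fold.

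Med16, a tail subunit, had the largest difference in the opposite direction. It was at 0.143 CP10K (43 counts) in WT CON and 0.0452 (14) in WT FSK, a ratio of 0.317 (0.16 to 0.591). In the mutant it was at 0.369 (71) in CON and 0.0608 (14) in FSK, a ratio of 0.165 (0.0858 to 0.295). The 2 FSK columns held the same number of Med16 counts, and the untreated columns differed.

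Med24, a tail subunit that associates with Med16 and Med23, was at 0.289 CP10K in CON and 0.171 in FSK in WT (ratio 0.593, 0.413 to 0.844), and at 0.473 and 0.221 in the mutant (ratio 0.469, 0.326 to 0.667). Med25, a tail subunit used by several activators, was at 0.518 and 0.349 CP10K in WT (ratio 0.674, 0.522 to 0.867), and at 0.841 and 0.43 in the mutant (ratio 0.511, 0.394 to 0.66). In each of these 4 pairs the counting interval of the ratio lay below 1.

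The remaining 3 genes differed less. Med1, which carries the motifs used by nuclear receptors, had a log2 ratio of -0.30 (-0.62 to 0.01) in WT and -0.51 (-0.83 to -0.18) in the mutant. Med17, a head subunit that contacts RNA polymerase II, had -0.51 (-0.99 to -0.03) and -0.19 (-0.72 to 0.34). Med23, a tail subunit that receives signals from several pathways, had -0.24 and -0.14, both with intervals across 0.

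By the rule used here (at least 1.5-fold, 0.585 on the log2 scale, with at least 20 counts over both columns), 1 of 8 genes was higher and 2 were lower in WT, and 1 was higher and 3 were lower in the mutant. Over all genes tested in beta cells, 7.57% were higher and 34.2% lower in WT, and 21.7% were higher and 33.3% lower in the mutant. The lower counts of the subunit genes are near that background. The median log2 ratio of the 8 was -0.41 in WT and -0.35 in the mutant, beside -0.32 and -0.16 over all genes. Relative to that shift of all genes, Med14 stood at 0.97 in WT and 1.06 in the mutant, and Med16 at -1.34 and -2.44. With the same centring Med1 in WT (0.01) and Med23 in both genotypes (0.08 and 0.02) changed sign, and the other signs were kept. Centring also brought Med15 past 1.5-fold in both genotypes (0.73 and 0.66) and left Med24 in WT short of it (-0.43), so that 2 genes were higher and 1 lower in WT, and 2 higher and 3 lower in the mutant.

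The sign of the FSK difference was the same in both genotypes for 8 of 8 genes in beta cells. At the lower depth of alpha cells it was opposite for 4 of 8 (Med14, Med16, Med23 and Med25). In delta cells it was opposite for 3 of 8 (Med14, Med15 and Med23). The share of all genes with the same sign in both genotypes was not computed. In beta cells the all-gene median was below 0 in each genotype. The signs of Med1 differed between the genotypes after centring. Those of Med23 and Med25 differed once the length trend described below was removed. Directly compared under FSK, a comparison added after the data had been seen, Med14 was at a mutant to WT ratio of 0.951 (0.775 to 1.17), and 0 of 8 genes reached 1.5-fold in either direction against 21.0% higher and 1.97% lower over all genes. The counting interval of the ratio was apart from 1 for Med1 alone, at 1.27 (1.01 to 1.61). The 4 alpha cell markers summed in the FSK columns of beta cells to 3.58 CP10K in WT and 4.31 in the mutant, beside 1.58 and 1.82 in CON. Ttr carried this difference (1.19 in CON and 3.30 in FSK in WT, 0.447 and 2.67 in the mutant). Gcg was at 0.375 and 0.262 in WT, compared with 1.25 and 1.53 in the mutant. In alpha cells the same list summed to 37.3 to 124 CP10K. Their part in the result was not tested.

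**Figure D2:**
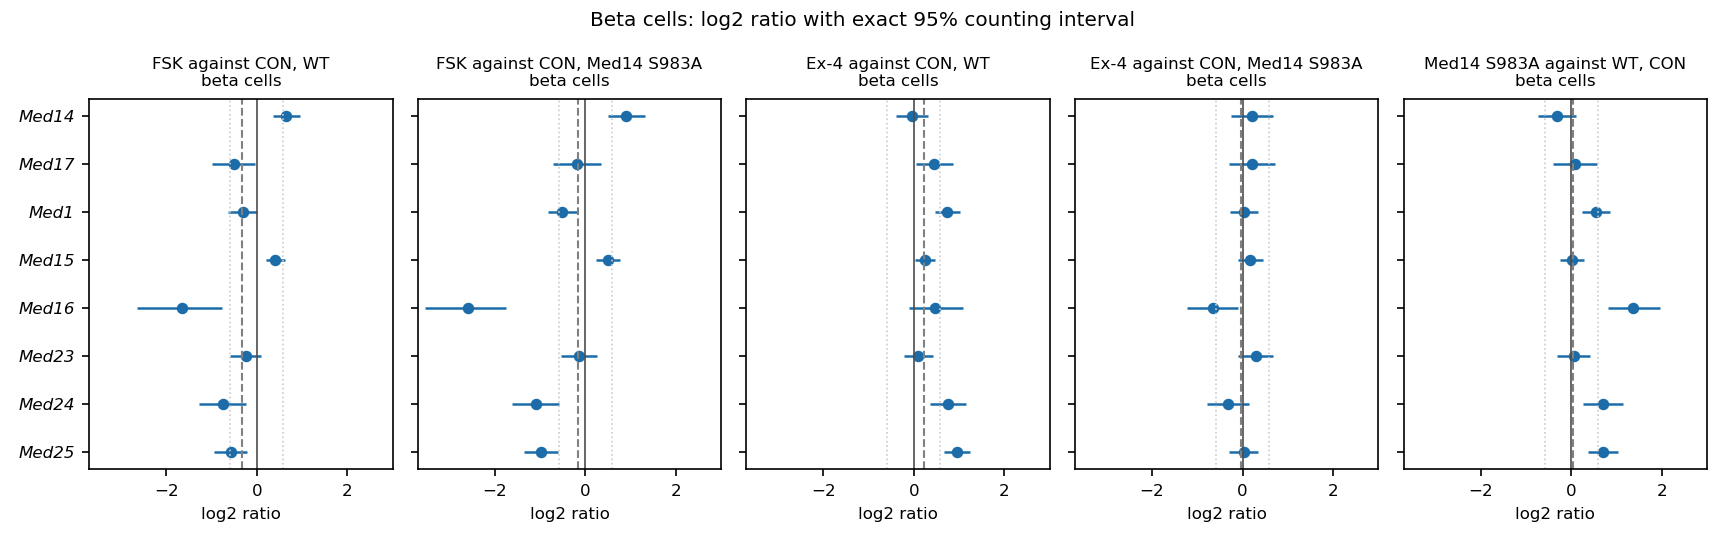
Log2 ratio (x axis) of each subunit gene in beta cells for the 5 comparisons, with exact 95% counting intervals as bars. The solid line marks 0, dotted lines mark 1.5-fold and the dashed line marks the median of all genes tested; Med14 lies right of the dashed line and Med16 left of it after FSK in both genotypes.

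Composition among the 8 genes does not depend on the column total. Med14 made up 12.2% (10.4 to 14.3) of their summed counts in untreated WT beta cells, 19.5% (17.3 to 21.9) after FSK and 8.65% (7.31 to 10.1) after Ex-4. In the mutant the share was 7.87% (6.23 to 9.78) in CON, 16.6% (14.3 to 19) in FSK and 8.8% (7.09 to 10.8) in Ex-4. The FSK columns held the highest Med14 share in each genotype. Med15 made up 26.5% of the counts in CON and 35.8% in FSK in WT, and 21.6% and 34.4% in the mutant, while Med16 took 3.66% and 1.17% in WT, with 7.55% and 1.41% in the mutant. A share shows unequal change among the 8 genes and not which of them changed.

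**Figure D3:**
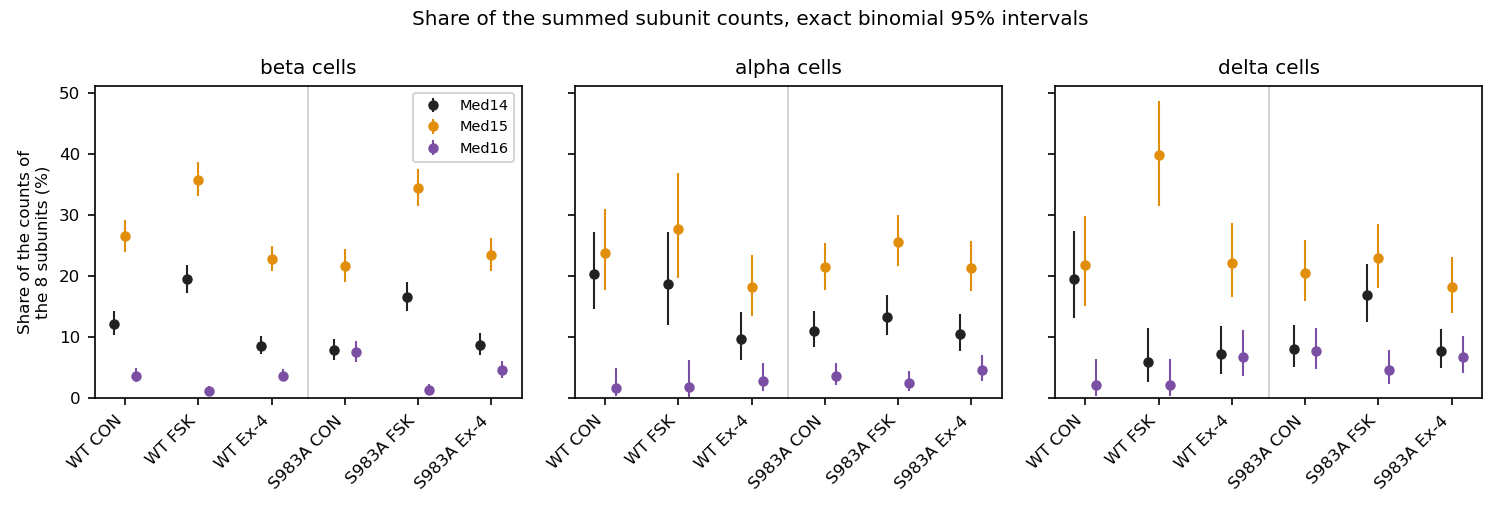
Share of the summed counts of the 8 subunit genes (y axis, percent) taken by Med14, Med15 and Med16 in the 6 conditions, for beta, alpha and delta cells. Bars are exact binomial 95% intervals; in beta cells the Med14 share is highest in both FSK columns (19.5% and 16.6%) and the Med16 share lowest (1.17% and 1.41%).

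In beta cells the order of the FSK ratios followed the length of the genes. The longest, Med14 and Med15 (86.98 and 82.26 kb), were higher after FSK in both genotypes, and the shortest, Med16 (14.25 kb), was the lowest. Across these 8 genes, which share the same columns and are not independent, Spearman's rho between gene span and log2 ratio was 0.93 in WT and 0.88 in the mutant. A trend of the same direction ran through all genes tested. With that trend subtracted, rho among the 8 was still 0.62 in WT and 0.74 in the mutant. After a smooth trend on gene length over all genes was removed, Med14 stood at a log2 ratio of 0.75 in WT and 0.63 in the mutant, Med15 at 0.52 and 0.25, Med24 at -0.34 and -0.82, Med25 at 0.04 and -0.40 and Med16 at -1.01 and -1.97. The direction of Med14, Med15, Med16 and Med24 was thus kept in both genotypes, whereas Med25 in WT, Med23 in WT (0.0066) and Med17 in both genotypes (0.02 and 0.24) changed sign.

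**Figure D4:**
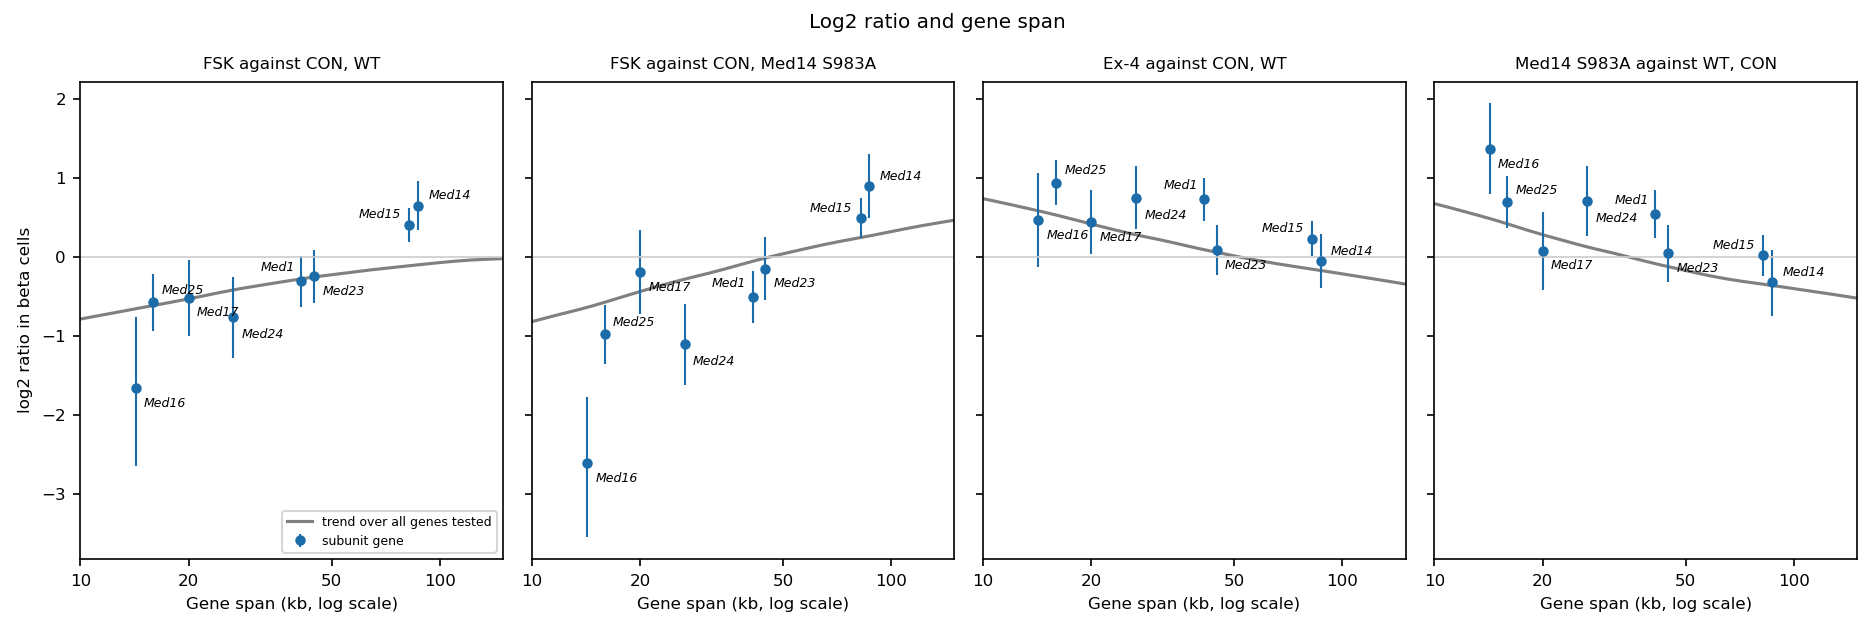
Log2 ratio in beta cells (y axis) of the 8 subunit genes against gene span in kb (x axis, log scale) for 4 comparisons. Bars are exact 95% counting intervals and the grey line is the smooth trend over all genes tested; after FSK, Med14 lies above the trend and Med16 below it in both genotypes, and for WT Ex-4 and the mutant baseline the trend runs the other way.

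The second comparison asked how the same genes differed after sustained Ex-4. It used the same CON columns as the FSK comparison, so the values of the 2 comparisons are not independent. In WT beta cells Med1, Med24 and Med25 were higher and Med14 was not. Med25 stood at 0.518 CP10K (156 counts) in CON and 0.996 (297) in Ex-4, a ratio of 1.92 (1.58 to 2.35). Med24 stood at 0.289 (87) and 0.486 (145), a ratio of 1.68 (1.28 to 2.22). Med1 stood at 0.611 (184) and 1.02 (303), a ratio of 1.66 (1.38 to 2.01). The interval of each of these ratios lay above 1.

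Smaller differences, with intervals just above 1, were seen for Med17 at a ratio of 1.36 (1.03 to 1.81) and for Med15 at 1.18 (1.01 to 1.38). Med14 was at 0.478 CP10K in CON and 0.463 in Ex-4, a ratio of 0.968 (0.761 to 1.23), and Med23 at a ratio of 1.07 (0.855 to 1.33). Med16 had 43 and 59 counts, a ratio of 1.39 (0.92 to 2.1). At this depth a difference was not detectable for Med14, Med16 or Med23.

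In mutant beta cells the Ex-4 and CON columns were close. Med25 was at 0.841 CP10K in CON and 0.856 in Ex-4 (ratio 1.02, 0.814 to 1.27), Med1 at 0.893 and 0.909 (ratio 1.02, 0.819 to 1.26), and Med24 at 0.473 and 0.376 (ratio 0.796, 0.576 to 1.1). Med14 was at 0.384 and 0.444, a ratio of 1.16 (0.836 to 1.6). Med16 was the exception, at 0.369 (71 counts) in CON and 0.235 (45) in Ex-4, a ratio of 0.637 (0.429 to 0.939).

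By the 1.5-fold rule, 3 of 8 genes were higher and 0 lower in WT, and 0 were higher and 1 lower in the mutant. Over all genes tested, 30.8% were higher and 11.7% lower in WT, and 5.44% were higher and 6.06% lower in the mutant. The share of subunit genes higher in WT was near the background. Their median log2 ratio was 0.46 in WT and 0.10 in the mutant, beside 0.22 and -0.03 over all genes. With the all-gene median set to 0, Med25 stood at 0.73, Med24 at 0.54 and Med1 at 0.52 in WT, and Med23 (-0.12) changed sign. After the length trend was removed, Med1 stood at 0.64, Med24 at 0.47 and Med25 at 0.41, while Med14 (0.12) and Med16 (-0.12) changed sign.

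The difference between the genotypes in the Ex-4 response was not tested. Under Ex-4 itself, a comparison added after the data had been seen, 0 of 8 genes reached 1.5-fold between mutant and WT in either direction, against 3.63% higher and 9.48% lower over all genes. The treated columns were at 0.996 and 0.856 CP10K for Med25, 1.02 and 0.909 for Med1 and 0.486 and 0.376 for Med24, in WT and mutant respectively. It was the untreated columns of these 3 genes that stood further apart.

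The third comparison set untreated mutant islets against untreated WT islets. It shares the WT CON column with the WT treatment comparisons. In beta cells Med16, Med24 and Med25 were higher in the mutant, with Med1 just under the threshold. Med16 stood at 0.143 CP10K in WT and 0.369 in the mutant, a ratio of 2.58 (1.74 to 3.87). The ratio was 1.64 (1.21 to 2.22) for Med24, 1.62 (1.3 to 2.04) for Med25 and 1.46 (1.18 to 1.81) for Med1. All 4 intervals lay above 1.

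The mutated gene itself was not higher. Med14 stood at 0.478 CP10K in WT and 0.384 in the mutant, a ratio of 0.804 (0.599 to 1.07), and the interval included 1. The ratio was 1.06 for Med17, 1.02 for Med15 and 1.04 for Med23, with intervals of 0.753 to 1.48, 0.849 to 1.22 and 0.803 to 1.33.

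Thus 3 of 8 genes were higher and 0 lower by 1.5-fold, against 27.3% higher and 21.7% lower over all genes, and the median log2 ratio was 0.32 beside 0.04. Leaving ribosomal RNA linked and mitochondrial genes out of the column totals moved every ratio up by 0.12 on the log2 scale. With the length trend removed, Med16 stood at 0.88, Med1 at 0.63, Med24 at 0.58 and Med25 at 0.28, and Med14 (0.04) and Med17 (-0.20) changed sign. Beta cell markers, of which all 5 were detected, summed to 57.8 CP10K in the WT CON column and to 40.6 in the mutant CON column. The other 4 beta columns held 40.8 to 45. The members of that list differed in opposite directions: Ins1 (4.55 and 8.52 CP10K) and Ins2 (10.4 and 15.2) were lower in WT CON than in mutant CON, while Iapp (11.6 and 4.51), Slc2a2 (12.0 and 4.82) and Slc30a8 (19.3 and 7.57) were higher. WT CON held the highest Slc2a2 and Slc30a8 of the 6 beta columns and lay within the range of the other columns for Ins1, Ins2 and Iapp. The part of this in the baseline difference was not tested.

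Alpha and delta cells were measured at lower depth, with 1 to 111 counts of a subunit gene per column. After FSK, Med24 was lower than CON in 6 of 6 pairs of columns over the 3 cell types and both genotypes (log2 ratio -1.92 to -0.48), and Med16 and Med25 in 5 of 6 each. Med15 was higher in 5 of 6. Med14 was higher in 4 of 6, with the counting interval apart from 1 in 3 higher pairs and in 1 lower pair. Med1, Med17 and Med23 were lower in 4 of 6 each. These tallies include pairs under 20 counts, and the share of all genes reaching the same tallies was not computed. Med16 in WT delta cells had 3 counts in FSK and 3 in CON, so its sign there came from the column totals. Med24 in WT alpha cells had 5 counts in FSK and 12 in CON. One pair in alpha cells (Med17, WT) rested on 1 count against 11.

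In alpha cells no gene had an interval apart from 1 among those with at least 20 counts after FSK. Med14 in WT was at 0.835 CP10K untreated, 0.78 after FSK and 0.532 after Ex-4, and in the mutant at 0.63, 0.738 and 0.542. The lowest and highest of these 6 levels had overlapping counting intervals, so the higher level after FSK seen in beta cells was not detectable here. By the 1.5-fold rule 1 of 5 counted genes was higher and 0 lower in WT (11.7% and 18.4% of all genes), and 0 of 8 higher and 1 lower in the mutant (23.8% and 13.2%).

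In delta cells Med14 differed in opposite directions in the 2 genotypes. In WT it had 26 counts untreated, 8 after FSK and 14 after Ex-4, and in the mutant 22, 44 and 23. These correspond to 0.717, 0.187, 0.324, 0.388, 0.697 and 0.416 CP10K. The FSK to CON ratio was 0.261 (0.102 to 0.593) in WT and 1.79 (1.05 to 3.14) in the mutant. The difference between the genotypes was not tested. The WT CON delta column, also used for Ex-4 and baseline, held the highest beta cell marker sum of the delta columns. Slc2a2 was at 2.125 CP10K there and at most 0.76 in the other delta columns, and Slc30a8 at 3.394 and at most 1.589. Ins1, Ins2 and Iapp lay within the range of the other delta columns. The part of this in the Med14 values was not tested.

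Med24 and Med25 were lower in WT delta cells after FSK, at ratios of 0.265 (0.0759 to 0.757) and 0.347 (0.141 to 0.784). In the mutant the ratio was 0.718 (0.378 to 1.35) for Med24 and 0.457 (0.279 to 0.732) for Med25. By the 1.5-fold rule 2 of 6 counted genes were higher and 3 lower in WT (18.1% and 20.7% of all genes), and 2 of 8 were higher and 2 lower in the mutant (27.6% and 22.0%). The 2 higher in WT, Med15 and Med23, had intervals that included 1.

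Ex-4 gave a ratio of 2.57 (1.45 to 4.77) for Med25 and 1.66 (1.02 to 2.74) for Med1 in WT alpha cells. Med24, the remaining gene that reached 1.5-fold in WT beta cells, had 12 counts in CON and 25 in Ex-4 in alpha cells, a ratio of 1.94 (0.937 to 4.23). In WT delta cells Med14 was lower, at 0.452 (0.218 to 0.898), and Med25 was at 1.53 (0.885 to 2.7). By the 1.5-fold rule 3 of 7 counted genes were higher and 1 lower in WT alpha cells (21.8% and 22.8% of all genes). In WT delta cells 2 of 6 were higher and 1 lower (25.9% and 17.4%). The lower gene was Med14 in both. Med14 was below CON in 3 of 3 WT cell types (log2 ratio -1.15 to -0.05), with the interval apart from 0 in delta cells only. The share of all genes with the same sign in 3 of 3 was not computed. In the mutant, 1 gene in alpha cells was lower (10.9% of all genes) and 0 in delta cells (9.85%), and 0 were higher in both (5.21% and 8.12%).

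At baseline Med14 was lower in the mutant in 3 of 3 cell types (log2 ratio -0.89 to -0.31), with the interval apart from 0 in delta cells. At the span of Med14 the length trend over all genes was itself -0.36 in beta, -0.36 in alpha and -0.27 in delta cells. Med16 was higher in 3 of 3 (1.37 to 2.16) and Med25 in 3 of 3 (0.68 to 1.21). Med1, Med15, Med17 and Med23 were also higher in 3 of 3, and Med24 in 2 of 3. In beta cells the length trend was 0.49 at the span of Med16 and 0.43 at that of Med25. The share of all genes with the same sign in 3 of 3 cell types was not computed. In alpha cells the ratio was 2.31 (1.36 to 4.18) for Med25 and 2.07 (1.08 to 4.28) for Med24, and in delta cells 4.48 (1.34 to 23.5) for Med16, from 21 counts against 3. Of 8 counted genes 4 were higher and 0 lower in alpha cells (24.0% and 26.2% of all genes), and of 7 counted in delta cells 3 were higher and 1 lower (25.5% and 24.3%). The sum over the 8 genes was higher in the mutant in beta, alpha and delta cells, by 0.32, 0.47 and 0.39 on the log2 scale. Alpha cell markers summed to 92.7 CP10K in the WT CON alpha column and 39 in the mutant CON alpha column, and beta cell markers in those columns to 33.1 and 14.5. Gcg (85.8 and 35.2) and Slc30a8 (29.6 and 10.7) made up most of these sums, whereas Irx2 (0.954 and 1.27), Ins1 (0.477 and 0.876) and Ins2 (1.10 and 1.75) were higher in the mutant. Their part in the alpha cell values was not tested.

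**Figure D5:**
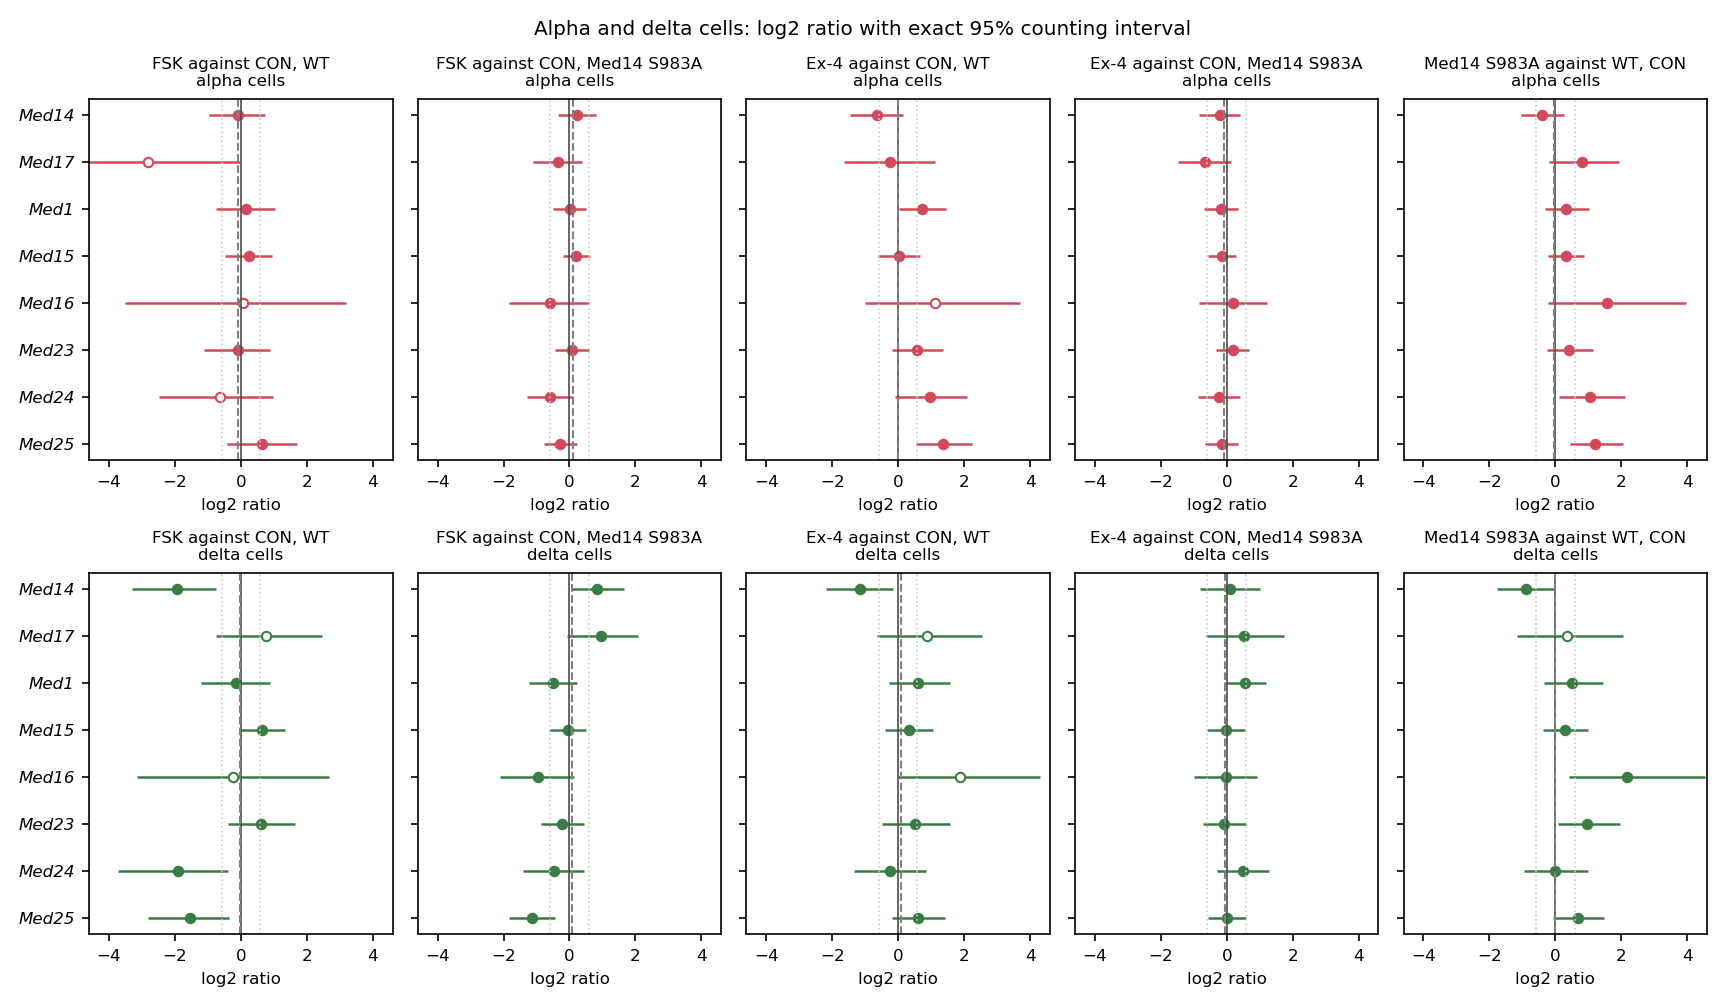
Log2 ratio (x axis) of each subunit gene in alpha cells (upper row) and delta cells (lower row) for the 5 comparisons, with exact 95% counting intervals, the median of all genes (dashed) and 1.5-fold (dotted). Open points rest on fewer than 20 counts over both columns and the interval of Med17 in WT alpha cells runs past the left edge; Med14 in delta cells lies left of 0 after FSK in WT (-1.94) and right of it in the mutant (0.84).

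The other 25 Mediator subunits were counted by the same rule in beta cells. After FSK, 1 of 16 with enough counts was higher and 3 lower in WT (7.57% and 34.2% of all genes), and 4 of 17 were higher and 6 lower in the mutant (21.7% and 33.3%). After Ex-4, 7 of 19 were higher and 1 lower in WT (30.8% and 11.7% of all genes), and 2 of 17 were higher and 2 lower in the mutant (5.44% and 6.06%). At baseline 5 of 18 were higher and 4 lower in the mutant (27.3% and 21.7%). Their medians were -0.14, 0.13, 0.23, -0.00 and 0.09 on the log2 scale in these 5 comparisons. The medians of all genes, in the same order, were -0.32, -0.16, 0.22, -0.03 and 0.04.

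Both ends of this list were often taken by the kinase module, which can attach to the core complex and whose kinase is Cdk8 or its paralog Cdk19. Cdk8 was at 19.1 CP10K in untreated WT beta cells, 38 after FSK and 86.9 in untreated mutant beta cells, and its ratio was the highest of the list after FSK in WT (log2 ratio 0.99) and at baseline (2.19). Whether all of these counts come from Cdk8 transcripts was not tested. Cdk19 was highest after FSK in the mutant (1.19) and lowest after Ex-4 in WT (-0.62) and at baseline (-1.05). The other extremes were the head subunits Med20 (-1.17, FSK in WT) and Med22 (-1.62, FSK in the mutant), the middle subunits Med9 (2.02, Ex-4 in WT, 20 counts against 5) and Med7 (0.88, Ex-4 in the mutant), and the tail subunit Med29 (-0.93, Ex-4 in the mutant).

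By module in WT beta cells after Ex-4, 2 of 4 counted head genes, 3 of 6 middle genes, 0 of 2 upper tail genes and 2 of 7 kinase module genes were higher, and 1 kinase module gene was lower, against 30.8% higher and 11.7% lower over all genes. Subunits of RNA polymerase II, the enzyme that Mediator contacts, were higher for 5 of 10 counted genes in that comparison and lower for 0, with a median of 0.82. In the mutant 0 of 7 were higher and 3 lower (5.44% and 6.06% of all genes). After FSK 0 of 5 were higher and 2 lower in WT (7.57% and 34.2%), and 1 of 8 was higher and 3 lower in the mutant (21.7% and 33.3%). At baseline 3 of 8 were higher and 0 lower (27.3% and 21.7%).

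The genes whose pattern over the 18 columns was most like that of Med14 were Tango2 (Pearson's r of log2 CP10K 0.82), Dstn (0.79), Pi4ka (0.79), Itm2b (0.79) and Spire1 (0.79), among 5344 genes with at least 5 counts in every column. The median r over all of these genes was 0.04. In WT beta cells Itm2b (0.627 CP10K in CON and 0.436 in FSK) and Spire1 (0.767 and 0.579) were lower after FSK, unlike Med14. Tango2 (0.521 and 0.537), Dstn (0.485 and 0.543) and Pi4ka (1.89 and 2.05) were slightly higher. In mutant beta cells all 5 were higher in FSK than in CON. Of the other subunit genes, 5 had enough counts to be ranked, and their r ran from -0.09 (Med23) to 0.08 (Med15). The columns share islet preparations and differ in depth, so these values describe the table and carry no test.

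Overlapping transcripts could affect some of the counts. Med14 overlaps the antisense lncRNA gene Gm14634 and Med15 overlaps Ccdc74a on the opposite strand, both of which are in the table. Whether the authors counted by strand is not stated, so reads of these pairs may not be told apart. Med16, Med17 and Med25 overlap no annotated gene.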

How the data were processed

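Nuclei from islets of 6 conditions were barcoded by the authors with Evercode WT v3, aligned to mm39 with split-pipe and processed in Seurat. Nuclei with extreme counts or a high mitochondrial share were removed before normalization, integration and annotation. Annotation release, strand use in counting and whether pooled counts were raw are not given in the sources used here. The deposited values are natural log values, ln(1 + 10000 × count / column total), for 17362 genes in 54 columns, of which 18 were compared. Whole counts were recovered from them (largest distance from a whole number 6.39e-05, tolerance 0.001).

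Levels carry exact Poisson intervals, ratios exact conditional binomial intervals and shares exact Clopper-Pearson intervals (95%, counting error only). A gene was counted at 1.5-fold or more with at least 20 counts over both columns and none at 0. With 1 column per condition there was no test and no p-value. Recovery and intervals were tested on simulated data. The 8 genes and all lists were chosen with earlier results of these data known. All 8 genes were named, with the highest and lowest of the other subunits in each beta cell comparison and the 5 genes most like Med14. Genes of acinar cells (Cpa1, Pnlip) and Krt19 were not in the table. The pancreatic polypeptide cell marker Ppy was at 0.0873 to 0.312 CP10K in beta, 0.262 to 0.631 in alpha and 0.475 to 1.05 in delta cells, and the delta cell list at 0.0194 to 0.324 in beta, 0.223 to 0.407 in alpha and 4.36 to 9.59 in delta cells.

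Alternatives were log2(CP10K + 1), no count minimum, totals without 15 ribosomal RNA linked or mitochondrial genes, centring on the median and subtraction of a lowess fit of the log2 ratio against gene span (fraction 0.3). Coordinates, lengths and sequences came from GRCm39 and GENCODE M39, in which 16531 genes matched by name and 831 did not. Scripts ran in Python 3.11.15 with scipy 1.17.1, pandas 2.3.3, numpy 2.4.6, matplotlib 3.10.9 and statsmodels 0.14.6.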

Additional observations from a re-analysis of the deposited data

Results flagged for a closer look

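Of 48 pairs of treatment ratios (8 genes, 3 cell types, FSK and Ex-4) looked at in both genotypes, 1 had counting intervals apart from 1 in opposite directions. This was Med14 in delta cells, with an FSK to CON log2 ratio of -1.94 in WT (8 against 26 counts) and 0.84 in the Med14 S983A mutant (44 against 22 counts). The difference between the genotypes was not tested, since each value comes from 1 column. The share of all genes that meet the same rule was not computed, so whether this pair is unusual cannot be told. The WT CON delta column also held the highest beta cell marker sum of the delta columns, and the part of this was not tested.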

How the results depend on the processing

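The log2 ratio of the summed counts of the 8 genes moved beyond its counting interval in 6 of 75 recomputed values. Of these 75, the 15 without a count minimum equal the main value by construction. All 6 that moved were in beta cells, where the counting intervals were narrower than in alpha and delta cells. The number of genes at 1.5-fold left a range of 1.5 times in 7 of 25. For the sum in beta cells, centring on the median of all genes changed -0.02 to 0.30 (FSK, WT), -0.18 to -0.016 (FSK, mutant) and 0.46 to 0.24 (Ex-4, WT). Removing the length trend gave 0.24 (FSK, WT) and 0.32 (Ex-4, WT), and rescaled totals gave -0.31 (FSK, mutant). For the counts, on log2(CP10K + 1) 0 genes reached 1.5-fold in all 5 beta cell comparisons, since this scale shrinks ratios at low levels. For Ex-4 in WT, centring and length removal each left 1 gene (Med25 and Med1, respectively) in place of 3. No paired analysis was possible because each condition has 1 pooled column, and for the same reason no replicate could be left out. Depth limited alpha and delta cells most, where up to 3 of 8 genes fell under 20 counts in a comparison.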
